A study of Mus musculus with 12 samples.

Results

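The comparison described here is oxygen-glucose deprivation (OGD) against sham treatment in mouse cortical cultures that carried an empty lentivirus. It was set by the sample labels alone and takes 5 of the series' 12 samples, namely OGD-empty replicates 1, 2 and 3 and sham-empty replicates 1 and 2. The column of sham-empty replicate 3 was left out because it did not hold read counts. The cultures came from cortex of C57BL6 embryos of age E16.5-E17.5 and were grown in Neurobasal medium with B27. All of them received the empty lentivirus on day 6 in vitro at a total multiplicity of infection of 2, so the virus is common to both groups. On day 14 in vitro the OGD-empty cultures were held in anoxic gas in a buffer without glucose for 3 h and then returned to normal medium for 4 h. The sham-empty cultures were rinsed with the same buffer and stayed in normal oxygen. The other 2 groups of the series received a lentivirus carrying miR-29 at the same multiplicity, with sham treatment (sham-miR-29) or OGD (OGD-miR-29), 3 libraries each. Cultures were dissected on a distinct day for each replicate number, so libraries with the same number form a pair. The cultures are a mixture of cell types, and fewer cells of a type and less RNA per cell cannot be told apart in such samples.

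Neurons make nearly all of their ATP by oxidative phosphorylation and hold little fuel in reserve. When oxygen and glucose are both withdrawn, ATP falls, ion pumps fail, glutamate accumulates outside the cells and calcium enters through glutamate receptors and voltage-gated channels. Programmes known to respond to such an insult include the integrated stress response, heat shock proteins, hypoxia-inducible genes, antioxidant genes and the immediate early genes that follow neuronal activity.

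The genes that fell after OGD included 42 of 74 nuclear-encoded respiratory chain and ATP synthase genes, 25 of 63 cytosolic ribosomal protein genes and 32 of 60 histone genes. Those that rose included 24 of 62 genes of synaptic adhesion and axon guidance and 13 of 41 voltage-gated channel genes. Of 12119 genes tested, 1369 were called (11.3%) at a Benjamini-Hochberg adjusted p under 0.05 in edgeR's quasi-likelihood test with the replicate number as a block, 689 higher after OGD (5.69%) and 680 lower (5.61%). Among the 1369 genes called the median absolute log2 fold change was 1.34, and over all genes tested the median log2 fold change was 0.01. The same direction was seen in both pairs for 1367 of the called genes. This agreement is no independent support, since the same pairs gave the calls. The 3 OGD-empty libraries and the 2 sham-empty libraries did not overlap for 1347 of the called genes. Over all genes tested, 22.0% did not overlap with OGD-empty higher and 21.6% with OGD-empty lower. Without the block 617 genes were called (5.09%), of which 615 were among the 1369. Leaving out sham-empty replicate 2 left 0 genes called (1464 at an unadjusted p under 0.05), while leaving out sham-empty replicate 1 left 1045, of which 752 were among the 1369. Fitting the 5 libraries alone with the block also left 0 (1782 at an unadjusted p under 0.05).

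**Figure D1:**
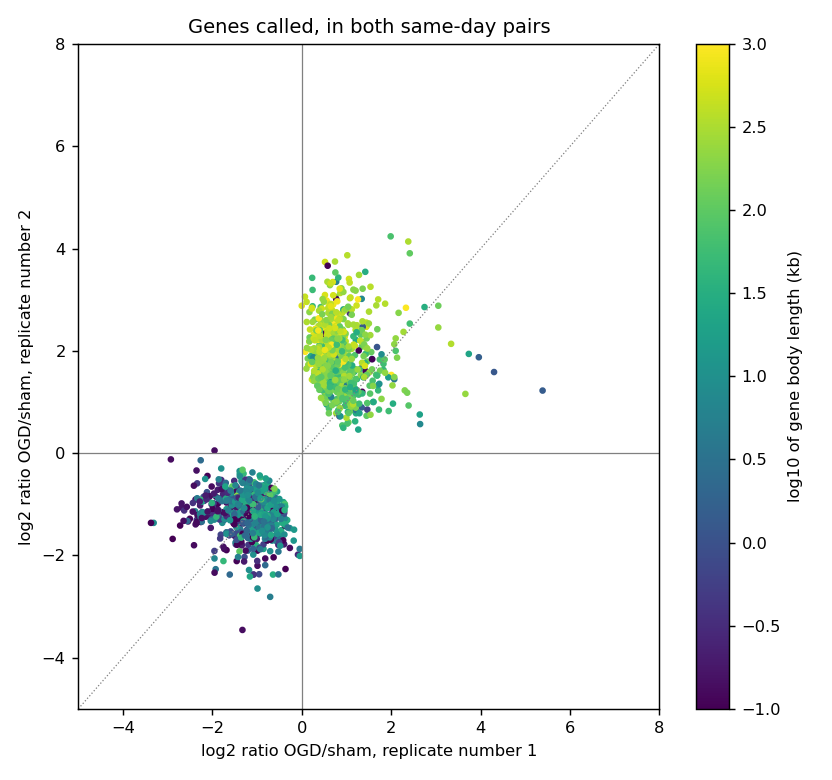
Each point is 1 of the 1369 genes called, placed by its log2 ratio of OGD-empty to sham-empty in replicate number 1 (x axis) and in replicate number 2 (y axis), and coloured by the log10 of its gene body length in kb. The genes called higher lie mostly above the dotted line of equality, with medians of 0.80 in pair 1 and 1.80 in pair 2, while the genes called lower have medians of -1.11 and -1.12.

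The rises and falls did not have the same size in every pair. The 689 genes called higher had a median log2 ratio of 0.80 in pair 1 and 1.80 in pair 2, and OGD-empty replicate 3 lay 0.91 above the sham mean. The 680 genes called lower had medians of -1.11, -1.12 and -1.05. The falls were therefore of like size in the 3 OGD-empty libraries, and the rises were largest in OGD-empty replicate 2. Summed counts per library were 1337564 and 2389020 in sham-empty and 5765127, 1400957 and 1465641 in OGD-empty. The 37 rows of the mitochondrial genome, which can count a read more than once, held 82.7% and 84.1% of these sums in sham-empty and 76.4%, 57.6% and 73.1% in OGD-empty (exact two-sided permutation p = 0.2, where 0.1 is the smallest that 10 arrangements allow). Outside those rows the sums were 231500 to 1362484 over the 11 libraries, and the median count per gene was 9 to 59, so low genes are measured with few reads. Counts can also include reads of neighbouring genes, since 59.7% of the matched genes had an annotated neighbour, within the gene or 10000 bp downstream, whose count was over 0.5 of their own. This was so for 652 of the genes called.

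Gene length ran through the whole comparison. The median gene body, from GENCODE M21 on GRCm38, was 177181 bp among genes called higher, 4163 bp among genes called lower and 23015 bp among all genes tested. Of the 840 tested genes longer than 200 kb, 298 were called higher (35.5%) and 0.119% lower. Of the 1087 tested genes up to 1 kb, 0.920% were called higher and 19.6% lower. The median log2 fold change went from -0.43 in genes up to 1 kb through 0.01 between 20 and 50 kb to 1.18 above 200 kb. In the genes above 200 kb it was 0.31 in pair 1 and 1.84 in pair 2, and OGD-empty replicate 3 lay 0.57 above the sham mean. Without OGD-empty replicate 2 it was 0.69, and without sham-empty replicate 2 it was 0.66. Each library's log2 CPM was also taken as a deviation from the mean of the 11 libraries. The slope of this deviation on length was -0.051 and -0.094 per log10 unit of length in sham-empty and 0.185, 0.463 and 0.211 in OGD-empty. The groups did not overlap, and the exact two-sided permutation p was 0.1, the smallest that 10 arrangements allow. Genes with no other annotated gene in their region followed the same order, with a median of -0.60 up to 10 kb and 1.32 above 200 kb, where 29 of 76 were called higher. Among the empty-virus libraries the share of counts in mitochondrial rows and the OGD-empty replicate 2 library move with this gradient. In sham-miR-29 the shares were 80.7%, 78.3% and 78.6% and the slopes -0.110, 0.054 and -0.128. In OGD-miR-29 the shares were 82.3%, 78.5% and 74.1% and the slopes -0.154, -0.172 and -0.203, so a lower share did not go with a higher slope there. The part of the share and of that library in the gradient was not tested.

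**Figure D2:**
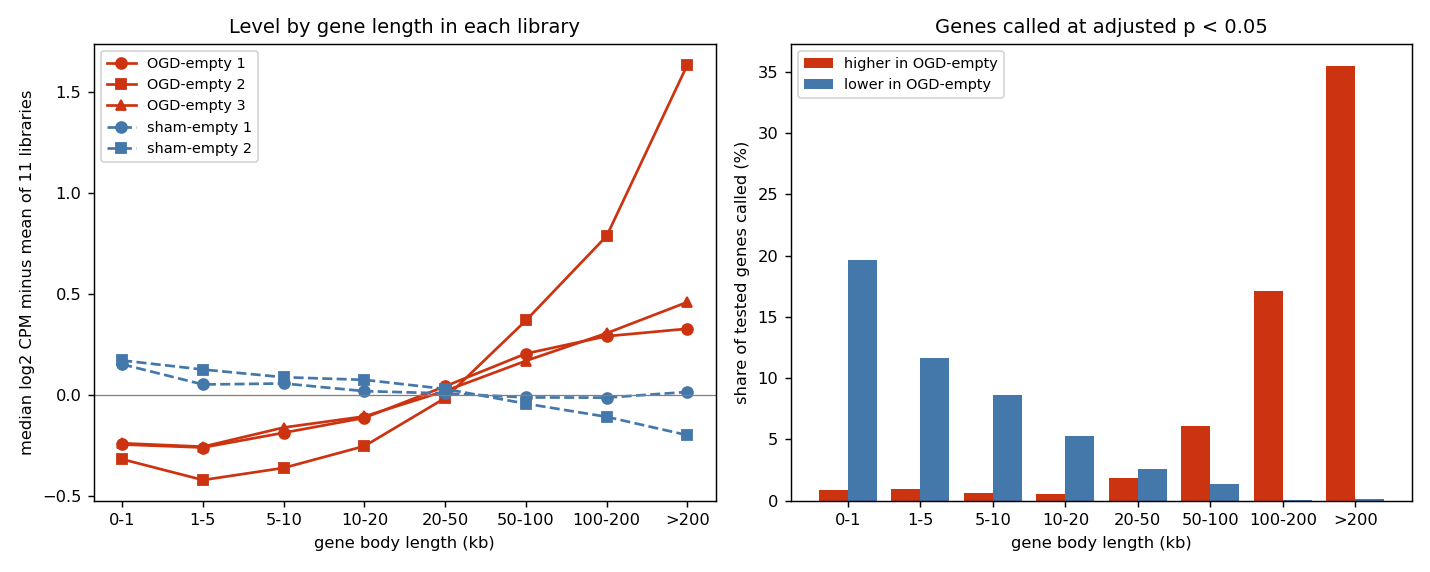
Left, the median over genes of log2 CPM minus the mean of the 11 libraries (y axis) in 8 classes of gene body length in kb (x axis), 1 line for each sham-empty (blue, dashed) and OGD-empty (red) library. Right, the share of tested genes called higher (red) and lower (blue) in each class; the 3 OGD-empty lines climb with length while the sham-empty lines are flat or fall, and 35.5% of genes above 200 kb were called higher.

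Counts of calls in each gene group below stand beside 5.69% of all genes called higher and 5.61% called lower. Because of the length gradient, many of the groups or their genes are also given with body length or with a second fit. In the second fit a smooth trend of each library on gene length was taken out. That fit called 530 of 11924 genes (4.44%), 198 higher (1.66%) and 332 lower (2.78%). It shared 387 calls with the main fit, 119 higher and 268 lower, and called 0 genes in the opposite direction. It asks whether a gene moved beyond other genes of its length, and takes out any response that is itself tied to length.

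Many nuclear-encoded subunits of the respiratory chain and ATP synthase fell. Of 74 tested subunits, 42 fell and 0 rose, and 70 had a fold change below 0 (median log2 fold change -0.89, median body 7.7 kb). With the length trend taken out 19 of the 42 were still called, and the median was -0.65; without the block 28 were called. By complex, 18 of 36 subunits of complex I (NADH dehydrogenase, which feeds electrons from NADH into the chain) fell, with 1 of 4 of complex II, 6 of 9 of complex III, 8 of 11 of complex IV (cytochrome c oxidase, which passes electrons to oxygen) and 9 of 14 of ATP synthase. Medians by complex were -0.90, -0.62, -1.11, -0.90 and -0.86, and with the length trend taken out the calls were 8, 0, 3, 4 and 4. The falls were alike in the 2 pairs, with medians over the 74 subunits of -0.88 and -0.82, and OGD-empty replicate 3 lay at -0.79.

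The complex I list and its counts include Ndufa4, a small subunit now assigned to cytochrome c oxidase. Ndufa4 had 77.6 and 76.4 CPM in sham-empty and 35.7, 28.4 and 39.7 CPM in OGD-empty (-1.22 ± 0.23 SE, adjusted p = 0.00442). All 3 OGD-empty libraries lay below both shams, and the fall held with the length trend taken out (-0.91, adjusted p = 0.00967). Ndufb10, a membrane-arm subunit of complex I, fell by 1.57 ± 0.28 on the log2 scale, with reads possibly shared with Rps2. In complex II, Sdhd, a membrane anchor of succinate dehydrogenase, fell by 0.95 ± 0.27 (adjusted p = 0.0294), but not with the length trend taken out (adjusted p = 0.153). In complex III, Uqcrfs1, the Rieske iron-sulfur protein, had 31.8 and 38.8 CPM in sham-empty and 14.5, 12.6 and 20.4 CPM in OGD-empty (-1.30 ± 0.27, adjusted p = 0.0068). Its groups did not overlap, and Uqcr10, a small subunit of the same complex, fell by 1.34 ± 0.29 (adjusted p = 0.01). In complex IV, Cox7a2 had 60.7 and 49.8 CPM in sham-empty and 27.2, 24.4 and 26.3 CPM in OGD-empty (-1.18 ± 0.23, adjusted p = 0.00516). Cox6c fell by 1.35 ± 0.26, with reads possibly shared with Vps13b, and Cox8a by 1.22 ± 0.24, with reads possibly shared with Otub1. Cox6b1 fell by 1.53 ± 0.39 and ranged from 9.11 to 34.8 CPM within OGD-empty, more widely than the others; it was not called with the length trend taken out (adjusted p = 0.0727). In ATP synthase, Atp5k had 33.8 and 19.7 CPM in sham-empty and 7.72, 7.68 and 6.97 CPM in OGD-empty (-1.94 ± 0.30, adjusted p = 0.00244). Atp5e, the epsilon subunit, fell by 1.76 ± 0.32 (adjusted p = 0.00442). Reads of Atp5k may be shared with Pde6b and those of Atp5e with Tubb1.

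The 13 proteins encoded by the mitochondrial genome did not pass the test in either direction (0 of 13). Their median was -0.23, at 0.22 in pair 1 and -1.07 in pair 2, and it turned to 0.25 without OGD-empty replicate 2 and to 0.19 with the length trend taken out. Their rows can hold the same reads and are not separate measurements. mt-Nd1, a complex I subunit, had 2731 and 2562 CPM in sham-empty and 2137, 890 and 1499 CPM in OGD-empty (-0.74 ± 0.32, adjusted p = 0.139). Its groups did not overlap, but the OGD-empty libraries were far apart, with replicate 2 lowest. Of 16 genes of the tricarboxylic acid cycle and pyruvate dehydrogenase, 1 fell and 0 rose (median -0.38). That gene was Fh1, fumarate hydratase, with 29.8 and 24.3 CPM in sham-empty and 8.96, 10.8 and 6.43 CPM in OGD-empty (-1.65 ± 0.30, adjusted p = 0.00429; -1.59 with the length trend taken out). Of 23 genes of mitochondrial import and dynamics 3 fell and 0 rose (median -0.66), and 1 was called with the length trend taken out (median -0.29). Among the 3 were Tomm7, a small subunit of the outer membrane import pore (-1.64 ± 0.41, adjusted p = 0.0195), and Chchd2, an intermembrane space protein (-1.33 ± 0.31, adjusted p = 0.0129). Reads of Chchd2 may be shared with Phkg1.

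**Figure D3:**
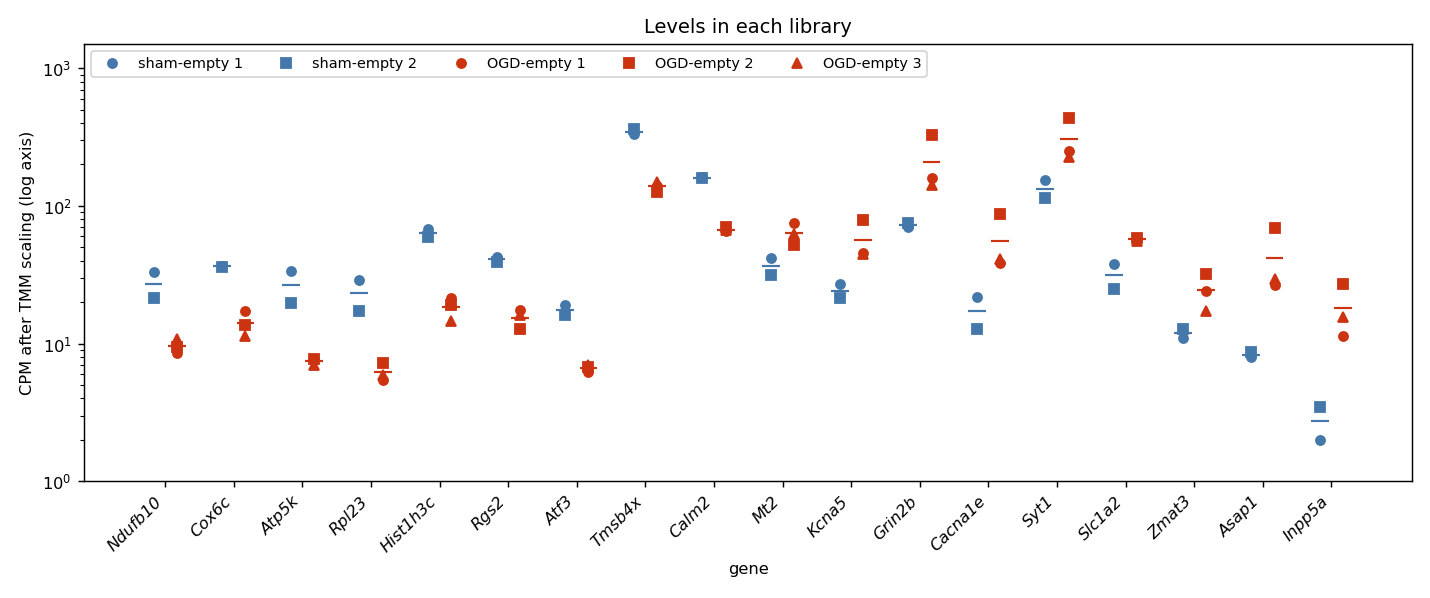
CPM after TMM scaling on a log axis (y axis) for 18 genes (x axis) in each sham-empty (blue) and OGD-empty (red) library, with replicate numbers 1, 2 and 3 as circle, square and triangle and a short line at each group's mean. The groups do not overlap for any gene shown; among the long genes Grin2b, Cacna1e, Asap1 and Inpp5a the OGD-empty replicate 2 library lies highest, while for the falling genes the 3 OGD-empty libraries lie close together.

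Some genes of the translation machinery fell as well. Of 63 cytosolic ribosomal protein genes, 25 fell and 0 rose, and 62 had a fold change below 0 (median -0.92, median body 3.4 kb). With the length trend taken out 8 of the 25 were called lower and 1 other was called higher, with a median of -0.55; without the block 17 were called. Rplp1, a protein of the ribosomal stalk with no neighbour in its counts, had 33.8 and 28.9 CPM in sham-empty and 13.1, 10.8 and 12.9 CPM in OGD-empty (-1.41 ± 0.27, adjusted p = 0.00481). Rpl23 fell by 1.97 ± 0.33, Rps3 by 1.76 ± 0.30 and Rps2 by 1.35 ± 0.25, but 41 of the 63 genes had a neighbour with over 0.5 of their count, such as the small nucleolar RNA genes Snora21 for Rpl23, Snord15a for Rps3 and Snora64 for Rps2. Of 9 tested snoRNA host transcripts 6 fell and 0 rose (median -1.44), and 3 of the 7 with a value were called with the length trend taken out. Snhg1 had 206 and 153 CPM in sham-empty and 43.1, 60.1 and 32.7 CPM in OGD-empty (-1.94 ± 0.32, adjusted p = 0.00411). Snhg3, another host, fell by 1.70 ± 0.32 (adjusted p = 0.00529). The table cannot separate these host transcripts from the snoRNAs that lie in them.

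Some translation factors fell too. Of 39 genes for initiation and elongation factors 7 fell and 0 rose (median -0.46; 3 called with the length trend taken out). Eif4a1, the helicase of the cap-binding complex, had 208 and 164 CPM in sham-empty and 43.7, 73.6 and 42.9 CPM in OGD-empty (-1.78 ± 0.29, adjusted p = 0.00314), with reads possibly shared with the small RNA gene Gm22988. Eef1b2, which reloads elongation factor 1A with GTP, fell by 1.20 ± 0.26 (adjusted p = 0.00932), with reads possibly shared with Ndufs1. Of 66 mitochondrial ribosomal protein genes 4 fell and 0 rose, near the 5.61% of all genes called lower. Of the 4, 0 were called with the length trend taken out. Mrpl15 was one of the 4 (-1.22 ± 0.32, adjusted p = 0.0216). Of 20 cytosolic aminoacyl-tRNA synthetases only Sars, the serine enzyme, fell (-0.78 ± 0.24, adjusted p = 0.0434), also near that share of all genes. Sars was not called without the block (adjusted p = 0.199). Of 34 proteasome genes 3 fell and 0 rose (median -0.53), with Psmb7, a subunit of the catalytic core, at -0.87 ± 0.24 (adjusted p = 0.0251) and at -1.09 with the length trend taken out (adjusted p = 0.00368).

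Histone genes, whose bodies are among the shortest in the table (median 0.6 kb), had 32 of 60 lower and 0 higher after OGD (median -1.16). Of the 32, 13 were called with the length trend taken out (median -0.74). Hist1h3c had 67.6 and 59.0 CPM in sham-empty and 21.5, 19.0 and 14.5 CPM in OGD-empty (-1.71 ± 0.24, adjusted p = 0.00186). Hist1h3e, which encodes the same core histone, fell by 1.63 ± 0.24 (adjusted p = 0.00196). The histone genes lie in clusters and 49 of the 60 had a neighbour with over 0.5 of their count, Hist1h1c for Hist1h3c and Hist1h1d for Hist1h3e, and near-identical copies cannot be separated. Most histone mRNAs lack a poly(A) tail, and these libraries were made by removal of ribosomal RNA, per the labels. Of 15 dividing-cell markers 5 had values, with a summed level of 46.9 to 50.7 CPM in sham-empty and 29.4 to 34.1 CPM in OGD-empty. Of these 5, Mki67 was called higher and Kif23 lower, and 2 were above 0 and 3 below; the part of dividing cells in the histone result was not tested.

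Tmsb4x, Calm2, Hint1 and Tmem256 fell as well. Tmsb4x, thymosin beta 4, which binds monomeric actin, had 330.2 and 363 CPM in sham-empty and 140.2, 126 and 149 CPM in OGD-empty (-1.40 ± 0.24, adjusted p = 0.00347). Calm2, 1 of the genes for calmodulin, had 161 and 159 CPM in sham-empty and 65.3, 70.0 and 66.5 CPM in OGD-empty (-1.35 ± 0.24, adjusted p = 0.00371). The 3 OGD-empty libraries were nearly equal in both genes. Hint1, a nucleotide hydrolase, fell by 1.49 ± 0.23 and Tmem256, a small membrane protein, by 1.90 ± 0.35, and all 4 genes were also called with the length trend taken out (adjusted p = 0.00239 to 0.0116).

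Among activity-regulated genes the calls were falls. Of 24 immediate early genes tested 5 fell and 0 rose (median -0.50), and of 22 delayed activity-regulated genes 5 fell and 0 rose (median -0.38). In each list 2 of the 5 were still called with the length trend taken out, and 1 other immediate early gene was called higher. Rgs2, a regulator of G protein signalling induced by activity, had 42.8 and 39.4 CPM in sham-empty and 17.6, 12.6 and 16.1 CPM in OGD-empty (-1.50 ± 0.26, adjusted p = 0.00371; -1.14 with the length trend taken out, adjusted p = 0.00402). Rgs4, a relative of Rgs2 abundant in cortical neurons, had 105 and 123 CPM in sham-empty and 63.8, 38.8 and 67.0 CPM in OGD-empty (-1.08 ± 0.26, adjusted p = 0.0136). Fos, the classic immediate early gene and an AP-1 subunit, had 21.9 and 34.7 CPM in sham-empty and 15.1, 10.4 and 13.9 CPM in OGD-empty (-1.11 ± 0.33, adjusted p = 0.0343; 0.139 with the length trend taken out). Btg2, an antiproliferative gene that is also a p53 target, fell by 1.40 ± 0.37 (adjusted p = 0.0224). Junb, an AP-1 subunit, fell by 0.86 ± 0.22 (adjusted p = 0.0212), but its reads may be shared with Prdx2 and it was not called without the block (adjusted p = 0.0616). Npy, the peptide of a class of interneurons, fell by 1.22 ± 0.34 (adjusted p = 0.0271; 0.0984 with the length trend taken out).

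Atf3, a stress-induced transcription factor usually described as rising after injury, was among the genes that fell. It had 18.9 and 16.2 CPM in sham-empty and 6.18, 6.77 and 6.97 CPM in OGD-empty (-1.50 ± 0.32, adjusted p = 0.00918). Its body of 47744 bp is not short, and its fold change was -1.66 with the length trend taken out (adjusted p = 0.00239). The 2 annotated neighbours of Atf3 had no values here, so reads shared with them cannot be judged. The integrated stress response, through which cells lower translation and induce amino acid and redox genes, had 1 rise and 2 falls of 23 tested (median -0.12), and 0 of 23 were called with the length trend taken out. The rise was Slc7a11, the cystine-glutamate exchanger, with 6 and 9 counts in sham-empty and 110, 41 and 42 counts in OGD-empty (1.75 ± 0.39, adjusted p = 0.0104). It is annotated over 551089 bp, and with the length trend taken out it was at 0.59 (adjusted p = 0.487). Atf4, the main transcription factor of the response, fell by 0.79 ± 0.24 (adjusted p = 0.0368), with reads possibly shared with Rps19bp1.

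Chaperone genes gave 2 calls, beside 11.3% of all genes called. Of 25 endoplasmic reticulum chaperones only Pdia4, a protein disulfide isomerase, was called. It had 167 and 105 CPM in sham-empty and 34.3, 43.8 and 30.02 CPM in OGD-empty (-1.84 ± 0.28, adjusted p = 0.00241), but the small RNA gene Rny1 beside it held 1.36 times its count. Of 21 heat shock protein genes only Hspa1b, an inducible HSP70, was called (-1.41 ± 0.45, adjusted p = 0.0472), at 5 to 21 counts in the OGD-empty libraries, and not without the block (adjusted p = 0.0881); its reads may be shared with Gm8696.

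Of 32 antioxidant and NRF2 genes 3 rose and 4 fell (median -0.31). With the length trend taken out 3 were called higher and 1 lower (median -0.15). Mt2, metallothionein 2, which binds zinc and copper and is induced by free zinc, rose against the length gradient from a body of 905 bp. It had 41.8 and 31.2 CPM in sham-empty and 75.4, 51.9 and 62.2 CPM in OGD-empty (0.91 ± 0.27, adjusted p = 0.0347), with every OGD-empty library above both shams. It was not called without the block (adjusted p = 0.0827), and the neighbouring Mt1 held 0.690 of its count. With the length trend taken out it was called at 1.38 (adjusted p = 0.00105). That fit moves short genes up, so this call adds no support. Nfe2l2, the gene of NRF2 itself, had 3 and 0 counts in sham-empty and 59, 16 and 10 in OGD-empty, a ratio of 7.3 (exact 95% counting interval 2.4 to 36.3, for counting error only; adjusted p = 0.0171), with reads possibly shared with Hnrnpa3. Among the falls were Prdx5, a peroxiredoxin of mitochondria and peroxisomes (-1.46 ± 0.33, adjusted p = 0.011), and Txn1, cytosolic thioredoxin (-1.23 ± 0.33, adjusted p = 0.0235).

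The promoter of Mt2 is shown because the gene rose in these libraries and also after OGD in the miR-29 cultures. Metallothionein promoters are known for short metal response elements, to which the zinc-sensing factor MTF1 binds. The 250 bases before the RefSeq start of Mt2 lie at chr8:94172368-94172617 on the plus strand (GRCm38.p6) and are given 5′ to 3′, with matches to TGCNCNC, on either strand, in capitals.
Mt2 promoter: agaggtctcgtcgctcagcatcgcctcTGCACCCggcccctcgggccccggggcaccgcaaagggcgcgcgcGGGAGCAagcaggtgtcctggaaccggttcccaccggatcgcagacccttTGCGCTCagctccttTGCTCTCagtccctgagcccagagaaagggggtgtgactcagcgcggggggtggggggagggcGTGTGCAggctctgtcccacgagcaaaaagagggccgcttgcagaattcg
There are 5 matches, 3 on the strand of the gene and 2 on the other. Of 32851 RefSeq promoters of the same length, 44.4% hold at least 1 match and 0.3% hold as many as 5. TGCNCNC is a loose pattern, and a match to it need not be a metal response element. A match is a description of the letters and not of binding.

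The hypoxic response and glycolysis lists gave 1 and 3 calls, beside 11.3% of all genes called. Of 23 hypoxia-inducible genes tested (31 listed) 0 rose and 1 fell (median 0.03), the fall being Mif, a cytokine gene (-1.20 ± 0.37, adjusted p = 0.0434), at 5 to 34 counts in OGD-empty. Of 19 glycolytic genes 1 rose and 2 fell (median -0.35). Pkm, pyruvate kinase, had 148 and 144 CPM in sham-empty and 82.3, 86.3 and 86.3 CPM in OGD-empty (-0.88 ± 0.24, adjusted p = 0.0236; -0.78 with the length trend taken out, adjusted p = 0.0345). Tpi1, triose phosphate isomerase, fell by 0.90 ± 0.24 (adjusted p = 0.0235), with reads possibly shared with Spsb2, and Slc16a7, the neuronal monocarboxylate transporter, rose by 1.26 ± 0.41 (adjusted p = 0.0495). None of these 3 was called without the block (adjusted p = 0.0521 to 0.134).

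Of 19 tested genes of the BCL2 family and cell death (32 listed) 0 rose and 1 fell, against 5.69% and 5.61% of all genes. The fall was Bax, which permeabilises the outer mitochondrial membrane, with 66.6 and 61.9 CPM in sham-empty and 33.7, 23.03 and 45.03 CPM in OGD-empty (-0.95 ± 0.28, adjusted p = 0.0354), and it was not called with the length trend taken out (adjusted p = 0.154); its reads may be shared with Gys1. Of 16 p53 targets 1 rose and 3 fell. Zmat3, an RNA-binding p53 target with a body of 31223 bp and no neighbour, had 10.9 and 12.7 CPM in sham-empty and 23.9, 32.1 and 17.2 CPM in OGD-empty (1.19 ± 0.31, adjusted p = 0.0212; 1.18 with the length trend taken out, adjusted p = 0.019). Plk2, a kinase that is both a p53 target and activity-regulated, fell by 0.77 ± 0.24 (adjusted p = 0.0455). Zmat3 and Plk2 were not called without the block (adjusted p = 0.0886 and 0.0916). Values were at hand for 5 of 30 listed cytokine, chemokine and NF-kB genes. Of these Nfkb1 was called higher, with 0 counts in both shams and 45 counts over the OGD-empty libraries, at least 3.88-fold higher when a floor of 3 counts stands in for the sham total.

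Autophagy and lysosome genes went both ways, with 1 rise and 6 falls of 23 tested (median -0.35). The rise was Lamp2, a lysosomal membrane protein (1.11 ± 0.32, adjusted p = 0.032; 0.0886 without the block). Atg16l1, which directs lipidation of LC3, fell by 1.24 ± 0.26 (adjusted p = 0.00794), with reads possibly shared with the small RNA gene Gm25395, and was the 1 of the 6 called with the length trend taken out. Of 23 genes of cholesterol synthesis and uptake 0 were called in either direction (median -0.02).

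Glutamate receptor genes lay on the rising side of the length gradient. Of 16 ionotropic receptor genes 4 rose and 0 fell, and 15 were above 0 (median 1.34, median body 348.6 kb). Of 6 metabotropic receptor genes 3 rose and 0 fell, and all 6 were above 0 (median 1.49, median body 473.5 kb). The medians in pair 1 were 0.36 and 0.45 and those in pair 2 were 2.09 and 2.18. None of these 22 genes (0 of 22) was called with the length trend taken out, and the medians were 0.25 and 0.11. The medians were thus far larger in pair 2 than in pair 1.

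Grin2b, the NMDA receptor subunit that dominates in immature cortex, lies on chromosome 6 over 460279 bp. It had 70.6 and 74.7 CPM in sham-empty and 158, 327 and 141 CPM in OGD-empty (1.60 ± 0.31, adjusted p = 0.00529; 0.245 with the length trend taken out). All 3 OGD-empty libraries were above both shams, with replicate 2 highest. Gria4, an AMPA receptor subunit, had 40.8 and 34.7 CPM in sham-empty and 70.6, 186 and 64.9 CPM in OGD-empty (1.56 ± 0.36, adjusted p = 0.0146; 0.0803 without the block). Grm3, a receptor found on astrocytes and neurons that lowers cAMP, rose by 1.55 ± 0.35 (adjusted p = 0.0112), with reads possibly shared with 9330182L06Rik. Of 19 genes of glutamate transport and metabolism 2 rose and 0 fell (median 0.23). Slc1a2, the glutamate transporter GLT-1 that clears most of the glutamate around synapses, had 37.8 and 24.9 CPM in sham-empty and 57.6, 58.7 and 55.2 CPM in OGD-empty (1.02 ± 0.27, adjusted p = 0.0232). Its 3 OGD-empty libraries were close together, unlike those of Grin2b and Gria4, but it was not called without the block (adjusted p = 0.0591) or with the length trend taken out (adjusted p = 0.33). Slc7a11, described above, was the other of the 2.

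Inhibitory receptor and channel genes were mostly above 0 as well. Of 11 GABA-A receptor genes 5 rose and 0 fell (median 1.13), with 0 called with the length trend taken out. Gabrb2, a beta subunit, had 29.8 and 26.6 CPM in sham-empty and 56.8, 87.2 and 49.3 CPM in OGD-empty (1.30 ± 0.30, adjusted p = 0.0122). Of 41 voltage-gated calcium, sodium and potassium channel genes 13 rose and 0 fell (median 1.04, median body 170.1 kb), and 2 were called with the length trend taken out, both among the 13. Cacna1e, an R-type calcium channel, had 21.9 and 12.7 CPM in sham-empty and 38.1, 87.2 and 41.3 CPM in OGD-empty (1.84 ± 0.35, adjusted p = 0.00529), and Cacna1c, an L-type channel, rose by 1.76 ± 0.35 (adjusted p = 0.00529). Kcnc1, a potassium channel of fast-spiking neurons, was one of the 2 that also passed with the length trend taken out. It had 7.96 and 9.84 CPM in sham-empty and 19.6, 28.0 and 23.6 CPM in OGD-empty (1.51 ± 0.33, adjusted p = 0.0104; 1.38 with the length trend taken out, adjusted p = 0.0102), with reads possibly shared with Sergef.

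Of 24 genes for calcium pumps, exchangers and release channels 6 rose and 0 fell (median 0.83), and with the length trend taken out 0 of the 6 were called and 1 other was called lower. Ryr2, a calcium release channel of the endoplasmic reticulum, had 19.9 and 22.0 CPM in sham-empty and 33.8, 123 and 46.6 CPM in OGD-empty (1.70 ± 0.38, adjusted p = 0.0131). Mcu, the pore of the mitochondrial calcium uniporter, rose by 1.67 ± 0.40 (adjusted p = 0.0152) from 5 and 8 counts in sham-empty. Of 13 genes for the Na+/K+-ATPase and chloride transporters 1 rose and 0 fell. Slc4a4, a sodium bicarbonate cotransporter of astrocytes, had 8.95 and 4.05 CPM in sham-empty and 19.6, 37.9 and 21.4 CPM in OGD-empty (2.28 ± 0.49, adjusted p = 0.0107; 0.0692 with the length trend taken out). Ryr2 and Mcu were not called without the block (adjusted p = 0.101 and 0.0516).

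Synaptic adhesion and axon guidance genes, which include neurexins, cadherins, Robo receptors and teneurins, were mostly above 0. Of 62 genes 24 rose and 0 fell, and 61 were above 0 (median 1.36, median body 521.3 kb). The median was 0.24 in pair 1 and 2.31 in pair 2, with OGD-empty replicate 3 at 0.62 above the sham mean. With the length trend taken out 4 were called higher, 3 of them among the 24, and the median was 0.10; without the block 7 were called. Cntnap5a, a contactin-associated protein annotated over 902568 bp, had 5.97 and 8.10 CPM in sham-empty and 16.2, 44.3 and 14.5 CPM in OGD-empty (2.01 ± 0.39, adjusted p = 0.00529), and it was not called without the block (adjusted p = 0.132). Nrxn2, a presynaptic neurexin, had 29.8 and 22.0 CPM in sham-empty and 63.8, 63.2 and 54.7 CPM in OGD-empty (1.32 ± 0.26, adjusted p = 0.00539; 0.0678 with the length trend taken out). Cdh10, a type II cadherin, rose by 2.50 ± 0.55 (adjusted p = 0.0112) from 4 and 5 counts in sham-empty and was called with the length trend taken out (1.63, adjusted p = 0.0343).

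Of 38 synaptic vesicle release genes 7 rose and 0 fell (median 0.53, and -0.03 with the length trend taken out, where 2 others were called higher and 0 of the 7). Syt1, the calcium sensor of fast release, had 153 and 113 CPM in sham-empty and 252, 434 and 226 CPM in OGD-empty (1.36 ± 0.31, adjusted p = 0.0112). Erc2, a protein of the presynaptic active zone, rose by 1.48 ± 0.30 (adjusted p = 0.00583), and with the length trend taken out its fold change was 0.03. Of 25 postsynaptic scaffold genes 4 rose and 0 fell (median 0.94), with 0 called with the length trend taken out. Shank2 rose by 1.55 ± 0.34 and Cnksr2 by 1.42 ± 0.31 (adjusted p = 0.0103 for both). Syt1 and Erc2 were not called without the block (adjusted p = 0.0809 and 0.141).

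Some regulators of RNA and chromatin rose. Of 47 splicing factors 5 rose and 0 fell, at a median of 0.00, and with the length trend taken out 2 were called higher, 1 of them among the 5. That one was Hnrnpd, also called AUF1, which binds AU-rich mRNAs. It had 8.95 and 9.84 CPM in sham-empty and 21.9, 23.9 and 19.8 CPM in OGD-empty (1.35 ± 0.40, adjusted p = 0.0363; 1.45 with the length trend taken out, adjusted p = 0.02) over a body of 23004 bp. Celf4 (1.25 ± 0.33) and Mbnl2 (1.02 ± 0.28), neuronal splicing regulators with long genes, were not called with the length trend taken out (adjusted p = 0.487 and 0.506). Of 35 chromatin regulators 8 rose and 0 fell (median 0.59; 0 called with the length trend taken out), among them Ash1l, a histone methyltransferase whose reads may be shared with Dap3 (1.24 ± 0.26, adjusted p = 0.00806), and Hdac4, a class IIa histone deacetylase (1.18 ± 0.29, adjusted p = 0.0165). Of 33 genes of extracellular matrix and integrins 7 rose and 0 fell (median 0.57; 0 called with the length trend taken out). Fn1, fibronectin, had 3.98 and 3.47 CPM in sham-empty and 13.3, 10.4 and 13.4 CPM in OGD-empty (1.79 ± 0.46, adjusted p = 0.0186), with reads possibly shared with Atic. Hnrnpd, Celf4, Mbnl2 and Hdac4 were not called without the block (adjusted p = 0.0517 to 0.0941).

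**Figure D4:**
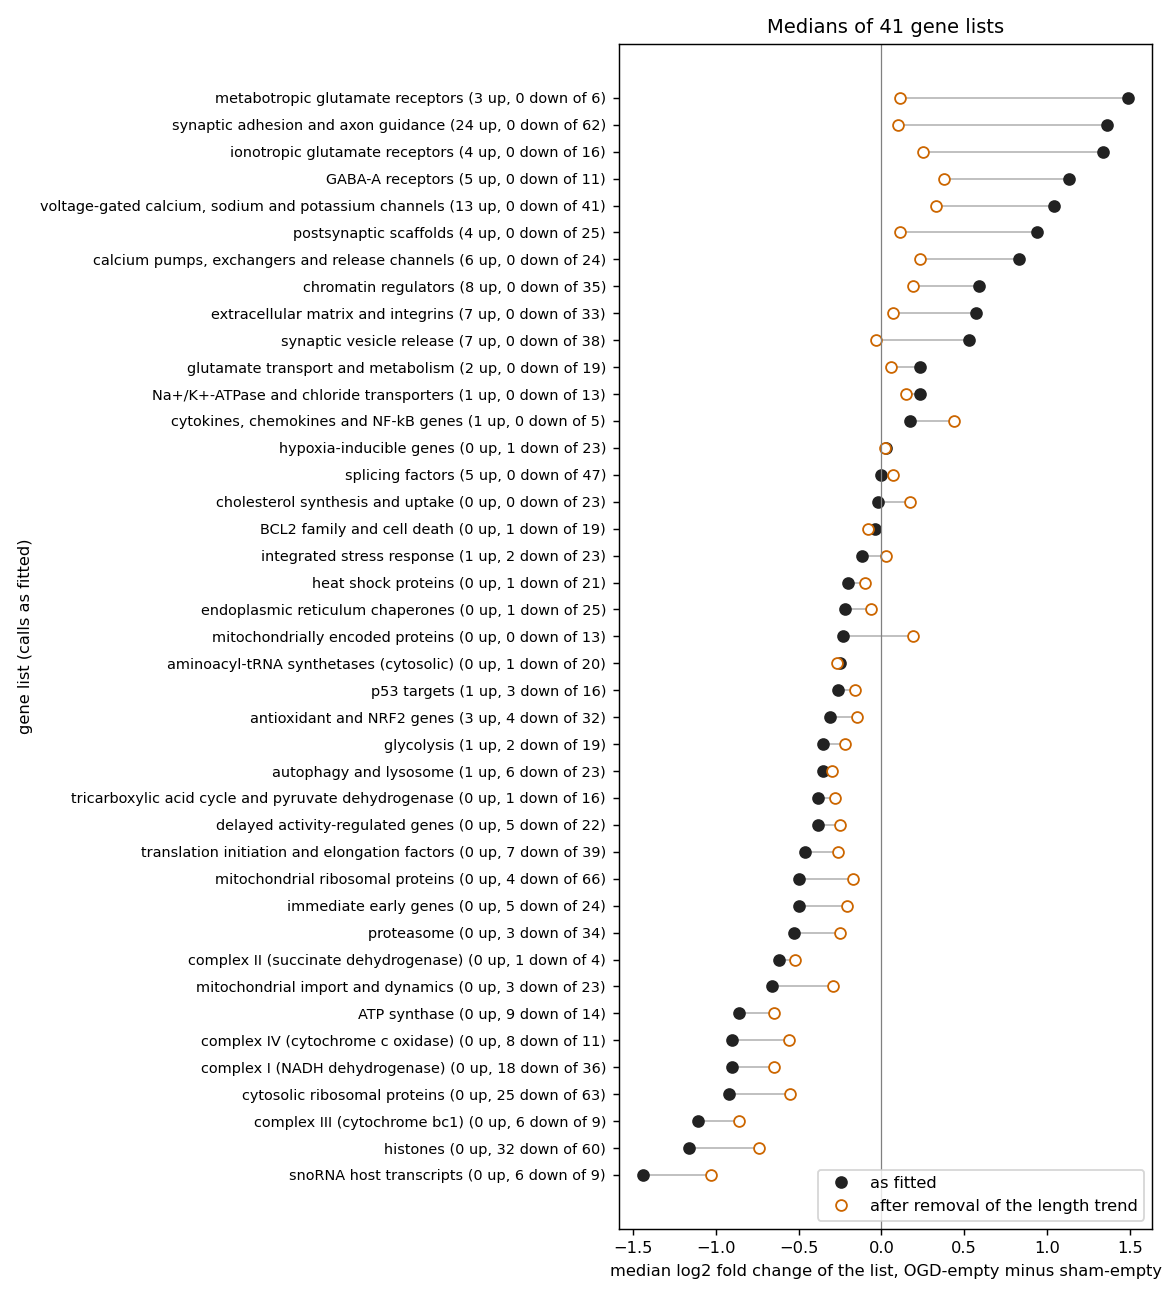
Median log2 fold change, OGD-empty minus sham-empty (x axis), of 41 gene lists (y axis, with the number called up and down of those tested), as fitted (filled) and with the length trend taken out (open). The lists of long genes at the top move towards 0 when the length trend is taken out, to between -0.03 and 0.38 for the 10 highest, while the respiratory chain, cytosolic ribosomal, histone and snoRNA host lists at the bottom stay below -0.50.

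Genes with the largest rises were also long. Among 447 genes called higher with a mean of at least 20 counts, one direction in all libraries and no neighbour over 0.5, Ldb2, a cofactor of LIM-domain transcription factors, stood first in fold change. It had 1 and 2 counts in sham-empty and 52, 70 and 15 counts in OGD-empty, a ratio of 11.8 (exact 95% counting interval 4.0 to 58.0; adjusted p = 0.00244, and 0.00346 with the length trend taken out). Inpp5a, which ends inositol trisphosphate signals, had 1.99 and 3.47 CPM in sham-empty and 11.3, 27.1 and 15.5 CPM in OGD-empty (2.73 ± 0.48, adjusted p = 0.00371). Tmem108 (2.70 ± 0.46), Man2a1, a Golgi mannosidase (2.60 ± 0.48), and Inpp5a were also called with the length trend taken out (adjusted p = 0.00813 to 0.0137). Thsd7b (2.96 ± 0.52) and Csgalnact1, an enzyme of chondroitin sulfate synthesis (2.79 ± 0.57), were not (adjusted p = 0.192 and 0.0707). Asap1, an Arf GTPase-activating protein on chromosome 15 with a body of 296063 bp, had 7.96 and 8.68 CPM in sham-empty and 26.7, 68.6 and 29.5 CPM in OGD-empty (2.45 ± 0.39, adjusted p = 0.00271; 1.40 with the length trend taken out, adjusted p = 0.0115). Ldb2 and Tmem108 were not called without the block (adjusted p = 0.0667 and 0.0673).

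A few genes ran against the gradient. Taking out the length trend moves short genes up and long genes down. A call in that fit therefore adds no support for the genes of this paragraph. Among the tested genes up to 10 kb, 30 rose, all 30 of them also called with the length trend taken out, but 25 had a neighbour with over 0.5 of their count, often a long gene around them. Kcna5, a potassium channel with a body of 2862 bp on chromosome 6 and no neighbour, had 26.9 and 21.4 CPM in sham-empty and 45.7, 79.5 and 45.03 CPM in OGD-empty (1.35 ± 0.31, adjusted p = 0.0113; 1.77 with the length trend taken out, adjusted p = 0.00105). Among the tested genes above 100 kb, 2 fell, and both were called with the length trend taken out. Filip1l, annotated over 220034 bp on chromosome 16, had 784 and 493 CPM in sham-empty and 284, 276 and 302 CPM in OGD-empty (-1.16 ± 0.27, adjusted p = 0.0125; -1.92 with the length trend taken out). The other was Taok3, a kinase (-0.76 ± 0.24, adjusted p = 0.0494; 0.0891 without the block), with reads possibly shared with Pebp1.

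Markers of neurons and astrocytes were measured in all 5 libraries. All 14 pan-neuronal markers had values, with summed levels of 1226 to 1249 CPM in sham-empty and 1348 to 1614 CPM in OGD-empty, and 1 of 14 rose. Their median log2 fold change was -0.26, with 8 of 14 below 0, so the sum and the median differ in sign. Of 17 astrocyte and radial glia markers 14 had values (Gfap, Sox9 and Hes5 were not analysed here), with 185 to 190.4 CPM in sham-empty and 213 to 242 CPM in OGD-empty. The 2 that rose were Slc1a2 and Slc4a4. Of 14 microglia and macrophage markers 6 had values, summing to 51.5 to 65.6 CPM in sham-empty and 33.8 to 39.7 CPM in OGD-empty, and 1 fell. The defining markers P2ry12, Tmem119 and C1qa, all 8 endothelial and all 6 erythroid markers had no values and were not analysed here. Of 6 choroid plexus markers 1 had values, at 25.9 to 34.7 CPM in sham-empty and 5.0 to 18.8 CPM in OGD-empty, and it fell. The part of these cell types in the changes above was not tested.

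The response was set against that of the miR-29 cultures, which share dissection days with it but no libraries. There OGD-miR-29 against sham-miR-29 gave 5 calls (0.0413%). The difference between the 2 responses was tested as an interaction, which called 1861 genes (15.4%), or 947 (7.94%) with the length trend taken out. The interaction contains the same 5 libraries as the comparison described here, so the calls of both are not independent. In the miR-29 cultures the median log2 fold change of genes above 200 kb was -0.32, where under the empty virus it was 1.18. Atp5k was at 0.48 under miR-29 against -1.94 here (interaction -2.42, adjusted p = 0.0039), and Grin2b was at -0.60 against 1.60 (interaction 2.19, adjusted p = 0.00496). Mt2 was 1 of the 5 calls under miR-29 (1.78, adjusted p = 0.000931) and rose by 0.91 here, and its interaction did not pass the test (-0.87, adjusted p = 0.0891). Hist1h3c, Rgs4, Npy and Atf3 were below 0 under miR-29 too, at -0.93, -0.26, -0.15 and -0.43, but none was called there (adjusted p = 0.154 to 0.841). Their interactions did not pass the test (adjusted p = 0.0709 to 0.102). Hist1h3e and Rgs2 were also below 0 under miR-29 (-0.54 and -0.32), with interactions that passed (adjusted p = 0.0219 and 0.0242). With the length trend taken out the interaction of Atf3 did pass (-1.29, adjusted p = 0.035).

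The authors' deposited table of the same comparison held 6 genes at a false discovery rate under 0.05, 2 higher and 4 lower, and 1578 at a p-value under 0.05. In the authors' deposited table Asap1 stood at a log2 fold change of 2.42 and Gm10722 at 3.93, and the falls were Snora15, Snora70, Gm25107 and Rpl10. All 6 were called here in the same direction. Gm10722 had 0 counts in both shams and 179, 2 and 92 counts in OGD-empty, at least 23.6-fold higher by the same floor, but with almost no counts in OGD-empty replicate 2.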

How the data were processed

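Total RNA from mouse cortical cultures was DNase-treated, depleted of ribosomal RNA and made into TruSeq libraries, per the labels' protocols. Unnormalized read counts by gene symbol were deposited for 12 libraries. The submitters' processing notes list STAR 2.5.0a, featureCounts 1.4.3-p1, edgeR and build mm10, without roles, and neither the counting region nor the strand setting or gene filter is stated in the sources used here. Per the file headers, the authors' deposited table for this comparison has log2 fold changes, mean log2 CPM, a score (the likelihood ratio), p-values and false discovery rates; a further deposited table with the same columns was not used. The column of sham-empty replicate 3 summed to 22859, and 92.5% of its values equalled a count of same-strand annotated genes over the gene and 10000 bp downstream, so it was left out of every fit; 0 sample columns were unmapped. Of 12145 symbols 11356 matched GENCODE M21 directly, 591 by an older symbol and 198 not at all; 19 had become dates. Where a library's reads fall in several rows the sums count them more than once.

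Genes were tested with edgeR 4.0.16 (R 4.3.3; TMM scaling, filterByExpr, robust quasi-likelihood F test) in 1 fit of 11 libraries with 4 group means and the replicate number as a block, and p-values were adjusted by Benjamini-Hochberg over all genes tested. Standard errors are the log2 difference over the root of F. Pairing comes from the design text, in which a replicate number marks a day of dissection. Deviations of same-numbered libraries correlated at -0.090 to 0.232 (15 pairs) and those of other numbers at -0.245 to 0.201 (30 pairs). In the 2 empty-virus pairs of this comparison the correlations were -0.075 and -0.048, so the block rests on the design text and not on these values. OGD-empty replicate 3 has no sham-empty partner, and its day is estimated from the miR-29 groups. The length trend was a loess curve (span 0.4) of each library's log2 CPM, as a deviation from the mean of the libraries in the fit, on log gene body length. In simulated counts with 11854 genes in the fit, 19 of 98 genes changed by 1 log2 unit and 81 of 99 changed by 2 were called in this comparison, with 3 unchanged genes called. The simulated counts held no length gradient between OGD-empty and sham-empty and no length-related shift of a single library. They also left out the gene-wise quasi-likelihood variance that the test uses. The simulated numbers therefore do not show how many false calls such shifts would give. Nor do they show the share of changed genes called at the full variance of these libraries. The members and gene lists were chosen with earlier results of these data known. Named genes were the 15 largest rises and falls past the threshold with a mean of at least 20 counts, 1 direction in every library and no neighbour over 0.5 of their count, and up to 3 called genes per list (1 where none was called); Fos, Kcna5, Filip1l, Taok3 and the genes shown beside the authors' table were chosen after their values were seen. Alternatives covered the block, the samples in the fit, DESeq2 1.42.0, limma 3.58.1 (voom), other scalings, filters, mitochondrial rows, gene length, neighbours and each library left out.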

Additional observations from a re-analysis of the deposited data

Results flagged for a closer look

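Of 89 called genes named above, 81 also differed between the viruses in their OGD response, beside 1156 of all 1369 genes called (84.4%). The difference was the interaction term of the same fit, at an adjusted p under 0.05 over all genes. Named and called genes alike were chosen from the empty-virus response, which is part of the interaction. Their numbers are therefore no independent evidence of a difference between the viruses. With the length trend taken out 45 of the 81 differed. The value given for each gene is the log2 OGD response under the empty virus minus that under miR-29.

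Respiratory chain genes responded lower under the empty virus, with differences for Ndufb10 (-1.75), Ndufa4 (-1.39), Sdhd (-1.50), Uqcrfs1 (-1.40), Uqcr10 (-1.86), Cox6c (-1.51), Cox7a2 (-1.63), Cox8a (-1.48), Cox6b1 (-2.14), Atp5k (-2.42) and Atp5e (-2.46). Other mitochondrial genes did so too, namely Fh1 (-1.90), Tomm7 (-2.43), Chchd2 (-1.51), Mrpl15 (-1.59) and Prdx5 (-2.15). In translation and its hosts the differences were Rpl23 (-2.13), Rps3 (-2.22), Rps2 (-1.65), Rplp1 (-1.76), Snhg1 (-2.39), Snhg3 (-2.20), Eif4a1 (-2.20), Eef1b2 (-1.69) and Sars (-1.33). Among histone, proteasome, chaperone and stress genes they were Hist1h3e (-1.09), Psmb7 (-1.17), Pdia4 (-2.06), Hspa1b (-1.92), Atf4 (-1.11), Txn1 (-1.46) and Mif (-1.50). Activity-regulated genes gave Rgs2 (-1.18), Junb (-1.19), Btg2 (-1.41) and Plk2 (-1.07), and glycolytic genes Tpi1 (-1.59) and Pkm (-1.31). The remaining falls were Tmsb4x (-1.71), Calm2 (-1.49), Hint1 (-2.01), Tmem256 (-2.15), Atg16l1 (-1.59), Filip1l (-1.09) and Taok3 (-1.30).

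Among the 81, the genes that rose under the empty virus responded higher there than under miR-29. Mt2 and Slc7a11 also rose but were not among the 81 (interactions -0.87 and 1.47, adjusted p = 0.0891 and 0.0517). Receptor and transporter genes gave Grin2b (2.19), Gria4 (1.84), Grm3 (2.27), Slc1a2 (1.67), Gabrb2 (1.89), Slc4a4 (2.82) and Slc16a7 (1.77). Channels and calcium genes gave Cacna1e (2.36), Cacna1c (1.74), Kcnc1 (1.68), Kcna5 (1.95), Ryr2 (1.90) and Mcu (2.20). Synaptic genes gave Erc2 (1.86), Syt1 (2.11), Cntnap5a (2.66), Nrxn2 (1.64), Cdh10 (2.90), Shank2 (2.00) and Cnksr2 (2.13). Regulators of RNA and chromatin gave Celf4 (1.72), Mbnl2 (1.37), Hnrnpd (2.39), Ash1l (1.70) and Hdac4 (1.88), and Zmat3 (1.90), Fn1 (2.02) and Lamp2 (1.41) were of other lists. Of the largest rises, the differences were Thsd7b (2.55), Csgalnact1 (2.79), Inpp5a (3.10), Tmem108 (2.70), Man2a1 (3.00) and Asap1 (2.93). Those of Ldb2 (4.43) and Nfe2l2 (3.32) rest on 3 counts over both shams, and their fitted values depend on the prior count.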

How the results depend on the processing

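Against 1369 calls (689 higher, 680 lower), the fit with no replicate block called 617 (179 and 438). The 5 libraries alone gave 201 calls (9 and 192; 9247 genes tested) with no replicate block and 0 (0 and 0; 1782 at an unadjusted p under 0.05) with it. DESeq2 with the block called 876 (482 and 394). With the length trend taken out there were 530 calls (198 and 332), or 308 (93 and 215) with no replicate block, and with only genes alone in their region 198 (104 and 94; 1467 genes tested). Other scalings, filters, voom and removal of mitochondrial rows stayed within 1.5 times, at 1282 to 1567 calls. Leaving out single libraries gave 0 to 1778 calls, 0 to 1140 higher and 0 to 787 lower: 0 without sham-empty replicate 2 (1464 at an unadjusted p under 0.05), 342 lower when sham-empty replicate 1 was absent, 1140 higher for OGD-empty replicate 1, 778 (395 and 383) for its replicate 3, and 852 (390 higher) for sham-miR-29 replicate 3. Where this left sham-empty with 1 library, that library was assumed to vary like the other groups. Leaving out a replicate number in all groups gave 1045 (842 and 203), 562 (181 and 381) and 378 (167 and 211) calls for numbers 1, 2 and 3. Of 89 called genes named above, 65 were called with no replicate block, 70 of 87 with DESeq2, 47 with the length trend taken out, and 0 reversed under any of the 27 alternatives. The cause of these losses was not tested. At a median of 9 counts per gene in the shallower sham library, small changes in low genes were not detectable at this depth.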
